A study of Rattus norvegicus with 6 samples.

Results

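The core circadian clock genes are described here: Arntl, Clock, Npas2, Cry1, Cry2, Per1, Per2, Per3, Nr1d1 and Dbp, 10 of the 30945 genes counted. They were chosen by symbol, with earlier results of the same comparison of siRNA_ANK with control libraries known, so their values are a description: no p-value is given for them, and which of them passed the threshold used for all genes is stated without being read as evidence. All 10 were present by symbol and passed the filter on low counts. The cells were primary vascular smooth muscle cells of the rat, the muscle cells of the arterial wall. Both groups were the same kind of cell: 3 libraries came from cells labelled as negative control and 3 from cells labelled siRNA_ANK, the label of a small interfering RNA. The labels give no strain, age or sex, no dose or duration of the siRNA, no hour of collection and no treatment that would synchronise the cells. They do not say whether the replicates were separate animals or cultures, so a p-value here reflects the spread among these libraries alone, which may be technical.

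The circadian clock is a feedback loop of transcription that runs in most cells of the body, including those of the vessel wall, where it bears on daily rhythms of tone and blood pressure. ARNTL, also called BMAL1, pairs with CLOCK or with its relative NPAS2 and binds DNA elements called E-boxes to switch on the Per and Cry genes, Nr1d1 and Dbp. PER and CRY proteins then block ARNTL and CLOCK. The product of Nr1d1, REV-ERB alpha, represses Arntl through ROR elements, and DBP drives genes that carry D-boxes. In a rhythmic tissue Arntl and the E-box genes therefore peak at different times of day. Without time points, a shift in the timing of a rhythm and a change in its mean level cannot be told apart here.

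Stretches before the start sites of 4 genes are printed because each holds an element through which the loop is known to be wired. The sequences are RefSeq's for the build GRCr8, 250 bases up to the start, 5′ to 3′ on the strand of the gene, with matches in capitals. Arntl (listed there as Bmal1; chr1:176766078-176766327, plus strand) holds a ROR element that begins 16 bases before the start. Per2 (chr9:99496994-99497243, minus strand) holds a D-box 192 bases before it. Nr1d1 has 2 listed starts, of which the second (chr10:84229455-84229704, minus strand) holds an E-box 191 bases before it. Ciart (chr2:186112247-186112496, minus strand), a further repressor of the loop whose promoter was chosen after its matches were seen, holds 3 E-boxes, at 93, 35 and 21 bases.
Arntl: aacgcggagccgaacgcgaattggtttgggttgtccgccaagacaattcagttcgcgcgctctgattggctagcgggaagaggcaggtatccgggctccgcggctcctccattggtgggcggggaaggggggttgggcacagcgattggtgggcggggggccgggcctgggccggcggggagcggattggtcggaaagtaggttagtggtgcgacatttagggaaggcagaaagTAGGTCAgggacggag
Per2: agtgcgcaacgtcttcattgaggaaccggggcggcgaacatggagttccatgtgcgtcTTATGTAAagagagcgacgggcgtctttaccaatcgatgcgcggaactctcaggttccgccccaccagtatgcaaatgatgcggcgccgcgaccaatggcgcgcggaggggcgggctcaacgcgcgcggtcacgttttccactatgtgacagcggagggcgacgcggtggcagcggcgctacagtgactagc
Nr1d1: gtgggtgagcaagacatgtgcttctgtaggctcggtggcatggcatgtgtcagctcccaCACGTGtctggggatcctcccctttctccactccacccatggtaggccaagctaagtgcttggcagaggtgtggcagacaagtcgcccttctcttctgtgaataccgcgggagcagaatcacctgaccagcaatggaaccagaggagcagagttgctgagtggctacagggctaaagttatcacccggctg
Ciart: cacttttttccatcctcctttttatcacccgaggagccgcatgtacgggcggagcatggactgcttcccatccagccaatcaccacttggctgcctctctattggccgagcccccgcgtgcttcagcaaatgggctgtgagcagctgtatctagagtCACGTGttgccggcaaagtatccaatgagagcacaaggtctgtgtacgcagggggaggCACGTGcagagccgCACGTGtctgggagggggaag

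Of the 10 genes, 9 had such a sequence, with 11 start sites between them; Cry1 was not matched. The search covered the E-box CACGTG, the D-box TTANGTAA, the ROR element TNGGTCA and the cAMP element TGACGTCA on both strands, with a site that reads the same on both strands counted once. An E-box, a D-box and a ROR element were each found in 1 of the 11 windows and the cAMP element in 0. Among the further genes searched, Ciart was not alone in holding a match. Tef, Bhlhe40 and Bhlhe41 each held an E-box, at 198, 220 and 48 bases, and Timeless held a ROR element at 156 bases. Of these, Tef and Bhlhe40 were lower in siRNA_ANK, Bhlhe41 was higher and Timeless did not pass the threshold. Over all 33469 windows of this length, 5.59% held an E-box, 2.04% a D-box, 9.47% a ROR element and 1.59% a cAMP element. A match describes the letters only. Variant forms of these elements, and elements outside these windows, were not searched, so a window without a match may still hold a variant.

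Library totals ranged from 15641259 to 17441548 counts. Ankh, the gene for the membrane protein ANK that is needed for pyrophosphate release, measured 338, 351 and 367 CPM (the count of a gene relative to its library total, scaled with TMM factors) in control replicates 1, 2 and 3. It measured 84.9, 76.7 and 120 CPM in siRNA_ANK replicates 1, 2 and 3. The mean was 3.75-fold lower (log2 fold change -1.91 ± 0.16, edgeR adjusted p = 0.000180). Replicate 3 of siRNA_ANK kept the most Ankh of its group. Smooth muscle markers (6 genes) summed to 2587 to 3595 CPM in the controls, against 5134 to 6140 CPM in siRNA_ANK. Of them 6 of 6 were higher past the threshold, as were 19.9% of all genes tested. The call of Cnn1 was lost under 6 of the 15 alternatives given below. Fibroblast markers (6 genes) summed to 1046 to 1119 CPM in the controls and 680 to 740 CPM in siRNA_ANK. Most of the fibroblast sum was Col15a1, which fell from 969.8 ± 34.1 to 525 ± 27.3 CPM (edgeR adjusted p = 2.96e-08). Of the other fibroblast markers 4 rose (Dcn, Lum, Pdgfra and Scara5) and Pi16 did not pass, with a median log2 fold change of 0.45 over the 6. Endothelial markers (5 genes) and macrophage markers (6 genes) had at most 25 counts in all per library, with Cdh5, Kdr, Ptprc and Adgre1 at 0 throughout. In bulk samples, fewer cells of a type and less RNA per cell cannot be told apart. The part of the shifts in smooth muscle and fibroblast markers in the clock values was not tested.

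Arntl was the clock gene with the widest difference, and it was higher in siRNA_ANK while the other members were lower or near the control level. Dbp and Clock were lower, and the Per genes, Nr1d1 and Cry1 had smaller negative differences. Of the 10 members, 1 was higher and 5 were lower at an edgeR adjusted p under 0.05 (Clock, Per1, Per3, Nr1d1 and Dbp). Among all 13016 genes tested, 40.1% passed this threshold, 19.9% higher and 20.2% lower. The members were chosen with this comparison known, so nothing is read from their count. The median log2 fold change was -0.26 over the members and 0.01 over all genes tested.

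**Figure D1:**
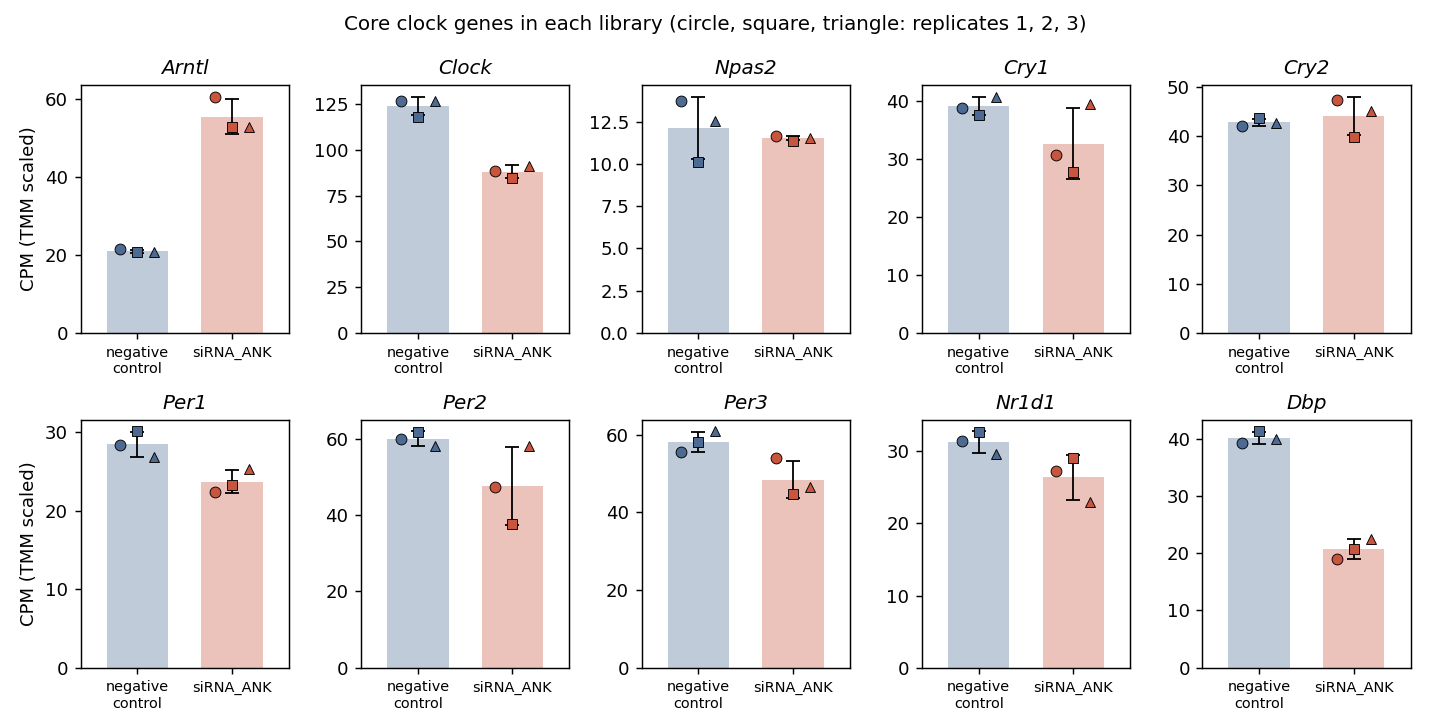
CPM of each core clock gene in the 6 libraries; bars are group means, whiskers are the SD (n = 3) and the symbols mark replicates 1, 2 and 3. Arntl stands at 20.7 to 21.4 CPM in the controls, against at 52.9 to 60.6 CPM in siRNA_ANK, and Dbp moves the other way.

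Among the activators, Arntl (ENSRNOG00000014448, chromosome 1, 167331633 to 167430231, plus strand, mRatBN7.2 as for all coordinates of genes) had 381, 360 and 331 counts in the control replicates and 1011, 884 and 836 in the siRNA_ANK replicates. On the CPM scale these were 21.4, 20.7 and 20.7 against 60.6, 52.9 and 52.9. Every siRNA_ANK library stood far above every control library, and the controls lay close together. The group mean was 20.9 ± 0.422 CPM in the controls (SD, n = 3) and 55.5 ± 4.43 CPM (SD, n = 3) in siRNA_ANK, 2.65-fold higher in siRNA_ANK, with a fitted log2 fold change of 1.41 ± 0.08 (SE).

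Clock (ENSRNOG00000002175, chromosome 14, 31908566 to 31990400, plus strand), the main partner of ARNTL, went the other way. It measured 127, 118 and 127 CPM in the controls, against 88.4, 84.5 and 91.4 CPM in siRNA_ANK. The groups did not overlap, and the 3 siRNA_ANK libraries were alike. The mean was 124 ± 5.06 CPM in the controls (SD, n = 3) against 88.1 ± 3.46 CPM, 1.41-fold lower, with a log2 fold change of -0.49 ± 0.06. Npas2 (ENSRNOG00000013408, chromosome 9, 41463830 to 41642320, plus strand), which can take the place of CLOCK, measured 13.7, 10.1 and 12.6 CPM in the controls, against 11.6, 11.4 and 11.5 CPM in siRNA_ANK. All siRNA_ANK values lay inside the control range. Its log2 fold change was -0.08 ± 0.12, and it was 0.02 without negative control replicate 1 and -0.19 without negative control replicate 2, so no direction is given for it.

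The transcripts of these activators therefore stood in other proportions, while their proteins were not measured. Per kilobase of gene length, the ratio of Arntl to Clock was 0.396, 0.411 and 0.382 in the controls and 1.61, 1.47 and 1.36 in siRNA_ANK, 3.73-fold higher in the mean. On this scale Clock was the more abundant of the pair in each control library, and Arntl in each siRNA_ANK library. In CPM, not divided by length, Clock stayed above Arntl in siRNA_ANK replicates 1, 2 and 3 (88.4, 84.5 and 91.4 against 60.6, 52.9 and 52.9). The ratio of Clock to Npas2 per kilobase was 5.18, 6.54 and 5.67 in the controls and 4.26, 4.16 and 4.45 in siRNA_ANK, without overlap.

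The Per genes, which encode the negative limb of the loop, had small negative differences of like size. Per1 (ENSRNOG00000007387, chromosome 10, 53805535 to 53814431, plus strand) measured 28.3, 30.1 and 26.9 CPM in the controls, against 22.4, 23.2 and 25.3 CPM in siRNA_ANK. The groups did not overlap, with siRNA_ANK replicate 3 nearest to the controls, and the log2 fold change was -0.27 ± 0.08. Per3 (ENSRNOG00000018413, chromosome 5, 161459533 to 161495607, minus strand) measured 55.6, 58.0 and 60.8 CPM and 53.9, 44.8 and 46.5 CPM. These groups came close together but did not overlap, siRNA_ANK replicate 1 being the nearest, and the log2 fold change was -0.26 ± 0.08.

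Per2 (ENSRNOG00000020254, chromosome 9, 92007296 to 92049459, minus strand) was even in the controls at 59.9, 61.8 and 58.0 CPM and uneven in siRNA_ANK at 47.2, 37.6 and 58.1 CPM. Replicate 3 of siRNA_ANK lay within the control range, and replicate 2 was far below it. The log2 fold change was -0.33 ± 0.13; it was -0.50 without siRNA_ANK replicate 3 and -0.19 without siRNA_ANK replicate 2, so its size varied with these libraries. Per2 missed the threshold in the edgeR fit of all 6 libraries. It passed in that fit without siRNA_ANK replicate 3, and with all libraries under DESeq2 and limma-voom.

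Cry1 (ENSRNOG00000006622, chromosome 7, 18529823 to 18594091, plus strand) and Cry2 (ENSRNOG00000007478, chromosome 3, 78374995 to 78404965, minus strand) encode the cryptochromes, the other repressors of ARNTL and CLOCK. Cry1 measured 38.8, 37.6 and 40.7 CPM in the controls, against 30.7, 27.7 and 39.4 CPM in siRNA_ANK. As for Per2, replicate 3 of siRNA_ANK was at the control level and replicate 2 was the lowest. The log2 fold change of Cry1 was -0.26 ± 0.11, -0.42 without siRNA_ANK replicate 3 (past the threshold, as with all libraries when no filter on low counts was used) and -0.16 without siRNA_ANK replicate 2. Cry2 measured 42.0, 43.6 and 42.7 CPM in the controls, against 47.4, 39.9 and 45.1 CPM in siRNA_ANK, with values on both sides of the controls. Its log2 fold change was 0.04 ± 0.07 and turned to -0.01 without siRNA_ANK replicate 1, so no direction is given.

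**Figure D2:**
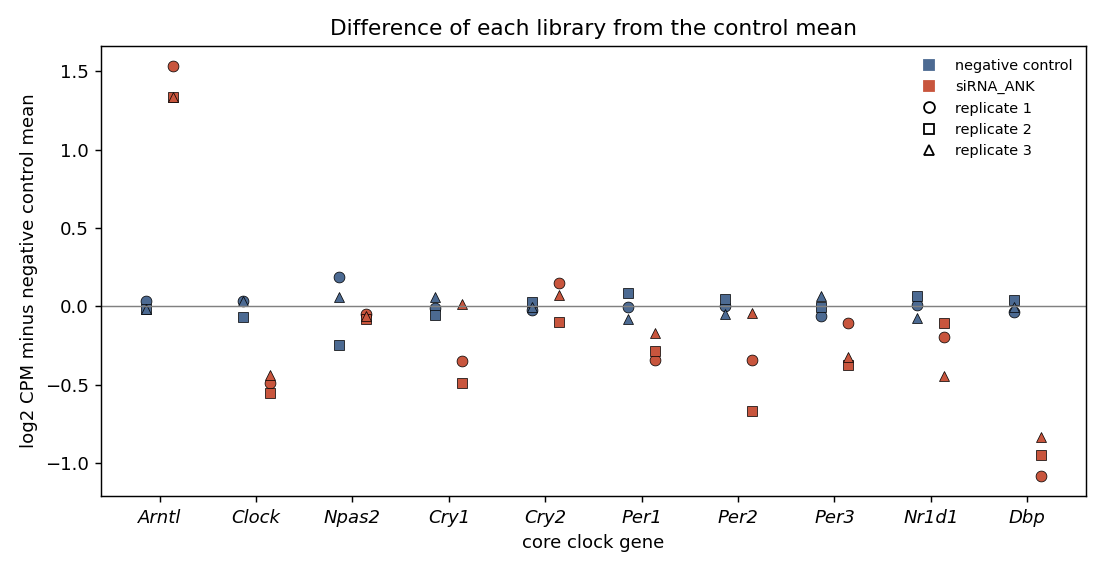
Log2 CPM of each library minus the mean of the negative controls, for each core clock gene; colours mark the groups and symbols the replicates. The 3 siRNA_ANK libraries lie together for Arntl, Clock and Dbp, while for Per2 they spread from -0.67 to -0.04 and for Cry1 from -0.49 to 0.01.

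The siRNA_ANK libraries differed in which clock genes moved most. Replicate 3, the library with the most Ankh, was the highest of its group for Clock, Cry1, Per1, Per2 and Dbp and the lowest for Nr1d1, and level with replicate 2 for Arntl. Replicate 2, with the least Ankh, was the lowest of its group for Clock, Npas2, Cry1, Cry2, Per2 and Per3. With 3 libraries no relation to the Ankh level was tested. For Arntl, the difference from the control mean was 1.53, 1.34 and 1.34 on the log2 scale in replicates 1, 2 and 3, so its difference was of similar size in all of them.

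Nr1d1 (ENSRNOG00000009329, chromosome 10, 83728318 to 83735705, minus strand), the repressor of Arntl, measured 31.4, 32.6 and 29.7 CPM in the controls, against 27.2, 29.1 and 23.0 CPM in siRNA_ANK. The groups were separated by a small gap between control replicate 3 and siRNA_ANK replicate 2. The log2 fold change was -0.24 ± 0.09 and -0.15 without siRNA_ANK replicate 3, and its call was lost under 9 of the 15 alternatives. Nr1d1 overlaps Thra, a thyroid hormone receptor gene on the opposite strand, over 1619 bases, and the strand setting of the counting is not given in the sources used here. Thra rose from 14.5 ± 1.72 to 21.3 ± 1.64 CPM (log2 fold change 0.56 ± 0.11, edgeR adjusted p = 0.000744), and how reads from the shared stretch were assigned is not known.

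Dbp (ENSRNOG00000021027, chromosome 1, 96175440 to 96180745, plus strand), the output transcription factor of the loop, had 696, 716 and 640 counts in the controls and 316, 347 and 355 in siRNA_ANK. On the CPM scale these were 39.2, 41.2 and 40.0 against 18.9, 20.8 and 22.5. The groups were far apart, with little spread inside either. The means were 40.1 ± 1.04 and 20.7 ± 1.77 CPM, 1.93-fold lower in siRNA_ANK, and the log2 fold change was -0.95 ± 0.08.

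Arntl and the E-box genes, whose ratio within a library does not depend on how libraries are scaled, were set against each other per kilobase. The ratio of Arntl to Dbp was 0.481, 0.442 and 0.455 in the controls and 2.81, 2.24 and 2.07 in siRNA_ANK, 5.17-fold higher in the mean. Arntl to Per2 was 0.628 ± 0.0228 and 2.15 ± 0.463 (SD, n = 3), and Arntl to Nr1d1 was 0.708 ± 0.0340 and 2.23 ± 0.272. All 3 ratios have Arntl as numerator, which was apart between the groups by itself, while Per2 was not. None of the 3 overlapped between the groups. The ratio of Per2 to Per1 did, at 1.46 ± 0.0351 and 1.39 ± 0.243, as did that of Cry1 to Cry2, at 1.23 ± 0.0613 and 0.993 ± 0.160.

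Over the members, the CPM ranges of the groups were apart for 6 of 10 (Arntl, Clock, Per1, Per3, Nr1d1 and Dbp), as they were for 51.1% of all genes tested. The calls of Arntl, Clock and Dbp held under all 15 alternatives and left-out libraries. Those of Per1, Per3 and Nr1d1 did not: with any 1 control library, or siRNA_ANK replicate 1 or 2, left out, 3 members were lower past the threshold instead of 5.

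The order of the members by level also changed. Per kilobase, the control order was Clock (16.3 ± 0.664 CPM per kilobase), Dbp (14.04 ± 0.365), Cry1 (13.4 ± 0.529), Cry2 (10.9 ± 0.200), Per2 (10.3 ± 0.332), Nr1d1 (9.11 ± 0.436), Per3 (8.05 ± 0.357), Per1 (7.03 ± 0.396), Arntl (6.44 ± 0.130) and Npas2 (2.84 ± 0.429). Only Dbp and Cry1 overlapped among neighbours in this order. In siRNA_ANK, Arntl led at 17.1 ± 1.36 CPM per kilobase, above Clock at 11.6 ± 0.454 without overlap, and Dbp stood seventh at 7.26 ± 0.618. Cry2 (11.2 ± 0.981), Cry1 (11.2 ± 2.07), Per2 (8.17 ± 1.75), Nr1d1 (7.70 ± 0.907), Per3 (6.70 ± 0.671) and Per1 (5.85 ± 0.362) each overlapped with a neighbour, as did Clock with Cry2, and Npas2 was last at 2.69 ± 0.0294. These levels rest on the gene lengths in the files, which need not be those of the transcripts made in these cells.

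**Figure D3:**
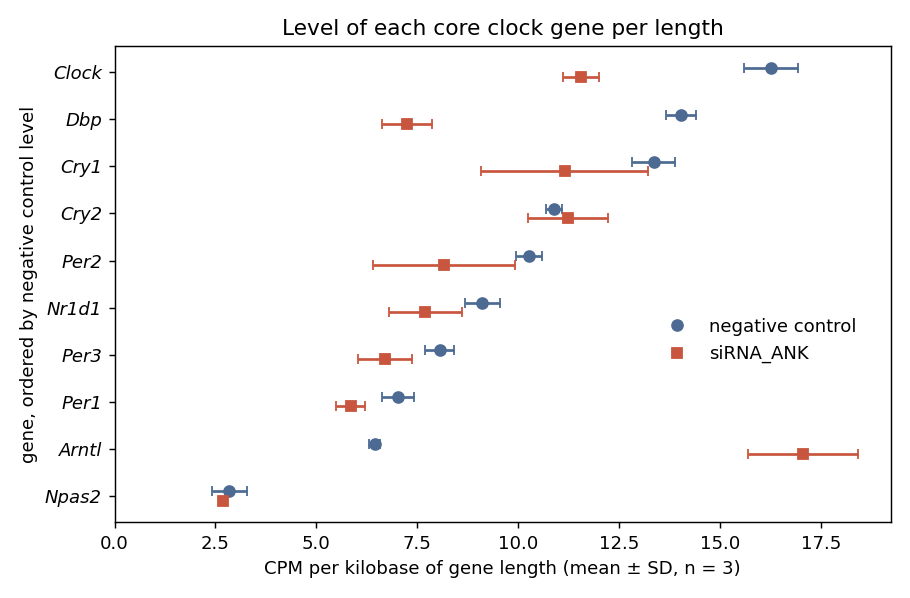
Level of each core clock gene as CPM per kilobase of gene length, mean ± SD (n = 3), ordered by the negative control level. Arntl moves from 6.44 to 17.1 and Dbp from 14.04 to 7.26, while Npas2 stays lowest in both groups.

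Further genes of the clock were taken from 7 lists set up by role, but with earlier results of these data known. Of 66 entries, 59 were tested, 5 were below the filter on low counts and the other 2 were not analysed here. Past the threshold, 13 were higher and 14 lower, which is 45.8% against 40.1% of all genes, with a median log2 fold change of -0.01. As for the members, nothing is read from these counts or from those of single lists, and the p-values of listed genes carry the same limit. Without negative control replicate 1 or siRNA_ANK replicate 2 the number higher was 7 and 8.

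The relatives of Nr1d1 and Dbp were lower. Nr1d2, which encodes REV-ERB beta, measured 69.1, 66.3 and 69.3 CPM in the controls, against 46.3, 47.4 and 46.5 CPM in siRNA_ANK. The libraries of each group were nearly identical and the groups far apart, with a log2 fold change of -0.55 ± 0.06 (edgeR adjusted p = 6.77e-06). Tef, a PAR bZIP factor that binds the same D-boxes as DBP, fell from 66.5 ± 2.29 to 41.7 ± 0.966 CPM (log2 fold change -0.67 ± 0.06, edgeR adjusted p = 1.35e-06). Rora, an activator at ROR elements, and Nfil3, a repressor at D-boxes, were the other tested genes of these lists and are named after their values were seen. Rora was 3.45 ± 0.171 and 4.16 ± 0.603 CPM and Nfil3 42.0 ± 0.773 and 38.4 ± 2.54 CPM, neither past the threshold (edgeR adjusted p = 0.268 and 0.167). Within each library, the ratio of Nr1d2 to Nr1d1 per kilobase was 1.61, 1.485 and 1.71 in the controls and 1.25, 1.19 and 1.479 in siRNA_ANK, groups that almost touched. The ratio of Dbp to Tef was 0.922 ± 0.0546 in the controls and 0.758 ± 0.0497 in siRNA_ANK without overlap, so Dbp was lower also relative to Tef. Rorb and Hlf had at most 10 counts in any library.

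Among 8 tested E-box factors and repressors, 2 were higher and 3 lower (62.5% past the threshold, against 40.1% of all genes tested). Arntl2, the paralog of Arntl, rose from 5.73 ± 0.898 to 10.6 ± 1.40 CPM (log2 fold change 0.89 ± 0.15, edgeR adjusted p = 0.000333). Arntl and Arntl2 thus both had higher values in each siRNA_ANK library than in any control library, while their ratio per kilobase, 2.52 ± 0.433 and 3.58 ± 0.578, overlapped. Ciart, whose 3 E-boxes are shown above, measured 30.9, 33.3 and 30.2 CPM in the controls, against 22.5, 24.0 and 25.6 CPM in siRNA_ANK (log2 fold change -0.39 ± 0.08, edgeR adjusted p = 0.00157). Bhlhe40, a repressor that competes for E-boxes, fell from 266 ± 8.003 to 206 ± 18.8 CPM (log2 fold change -0.37 ± 0.07, edgeR adjusted p = 0.000375). Its paralog Bhlhe41 passed the threshold in the other direction, 58.3 ± 1.72 against 67.8 ± 6.31 CPM (edgeR adjusted p = 0.0251). It no longer passed after removal of any 1 control library (adjusted p = 0.112, 0.0549 and 0.0553 for replicates 1, 2 and 3), nor after removal of siRNA_ANK replicate 1 (adjusted p = 0.0950) or 2 (adjusted p = 0.125). Usf2, another E-box binding factor, named after its value was seen, fell from 76.4 ± 4.35 to 68.1 ± 1.55 CPM (log2 fold change -0.17, edgeR adjusted p = 0.0450), and it did not pass under 9 of the 15 alternatives.

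**Figure D4:**
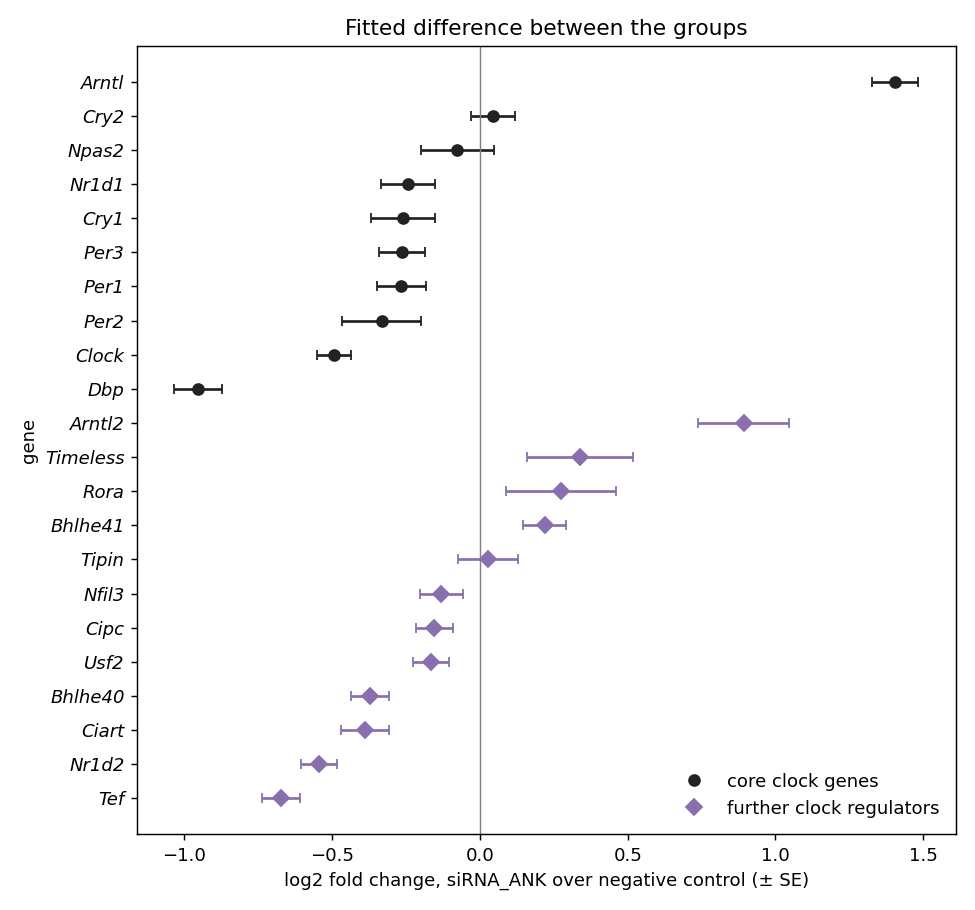
Fitted log2 fold change of siRNA_ANK over negative control with its SE, for the core clock genes (circles) and for the tested second-loop receptors, PAR bZIP factors and E-box regulators (diamonds). Arntl (1.41) and Arntl2 (0.89) lie on the right, and Dbp (-0.95), Tef (-0.67) and Nr1d2 (-0.55) on the left.

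Kinases and phosphatases set the stability and location of clock proteins. Of 13 kinase and phosphatase genes, 2 rose and 2 fell (30.8% past the threshold, against 40.1% of all genes tested). Csnk1e, a casein kinase that phosphorylates PER proteins, rose from 37.0 ± 0.804 to 48.5 ± 1.01 CPM (edgeR adjusted p = 0.000265) and Prkaa1, a subunit of AMP-activated kinase, from 42.3 ± 3.56 to 53.7 ± 2.81 CPM (edgeR adjusted p = 0.00217). Gsk3b and Gsk3a, which encode glycogen synthase kinases, fell from 59.6 ± 2.29 to 48.1 ± 2.56 CPM and from 52.2 ± 1.47 to 42.5 ± 2.57 CPM (edgeR adjusted p = 0.00204 and 0.00312).

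Of 9 tested genes of clock protein turnover, 2 rose and 0 fell (22.2% past the threshold, against 40.1% of all genes tested). Skp1, a shared subunit of ubiquitin ligases, rose from 158 ± 0.408 to 179 ± 8.87 CPM (edgeR adjusted p = 0.0201). Skp1 did not pass when control replicate 1, 2 or 3 (adjusted p = 0.0791, 0.0503 and 0.0693) was left out, nor when siRNA_ANK replicate 2 was (adjusted p = 0.0993). Among 11 tested cofactors, Sfpq, an RNA-binding protein found with PER complexes, rose from 92.6 ± 4.65 to 150.0 ± 3.46 CPM (edgeR adjusted p = 3.59e-07). Med1, a Mediator subunit, fell from 89.7 ± 1.26 to 73.3 ± 1.87 CPM (edgeR adjusted p = 0.000793), and the other 9 did not pass. The share of these cofactors past the threshold was 18.2%.

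Of 14 clock output genes, 6 rose and 6 fell (85.7% past the threshold, against 40.1% of all genes tested). Cdkn1a, the cell cycle inhibitor p21, rose from 45.2 ± 4.44 to 82.1 ± 6.77 CPM (edgeR adjusted p = 1.47e-06). Rock2, a kinase of the contractile apparatus and a target of ARNTL in smooth muscle, rose from 291 ± 10.4 to 422 ± 46.8 CPM (log2 fold change 0.54 ± 0.07, edgeR adjusted p = 5.15e-05). Rgs16, a regulator of G protein signalling, fell from 29.8 ± 6.77 to 10.5 ± 1.56 CPM (log2 fold change -1.50 ± 0.17, edgeR adjusted p = 4.80e-05), and Lonrf3 from 5.40 ± 0.679 to 2.91 ± 0.346 CPM (edgeR adjusted p = 0.00168). Output genes are also controlled by other signals, and the part of the clock genes in their values was not tested.

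The patterns of Dbp and Nr1d1 over the 6 libraries were each compared with 11238 other genes that had a symbol and an Ensembl ID. All of these averaged 2 CPM or more. Log2 CPM of each gene was centred on its control mean. The genes most alike were those with the smallest root mean square difference. For Dbp they were Fam184a (0.0452), Gpx3 (0.0688), Stxbp5 (0.0729), Col6a3 (0.0761) and Tuba1c (0.0778). For Nr1d1 they were Sap130 (0.0289), Cux1 (0.0367), AABR07054189.1 (0.0389), Nfatc2ip (0.0390) and Kpna6 (0.0399). None of them is in the clock lists. The measure includes the difference between the groups, so it favours genes with a like log2 fold change. AABR07054189.1 and Nfatc2ip did not pass the threshold (edgeR adjusted p = 0.223 and 0.270).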

How the data were processed

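The data are RNA-seq gene counts of 6 libraries of rat vascular smooth muscle cells, 3 labelled negative control and 3 labelled siRNA_ANK, grouped by their titles. The deposited files hold raw counts per gene, 1 file per library. The authors used featureCounts 1.5.0-p3, DESeq2 and the build mRatBN7.2, per the submitters' processing notes. The aligner, the strand setting and any read filter were not given in the sources used here. The counts were compared with edgeR 4.0.16 in R 4.3.3: filterByExpr (min.count 10, min.total.count 15) left 13016 genes, TMM factors were 0.979 to 1.02, and the robust quasi-likelihood test was two-sided with no covariate. Benjamini-Hochberg adjustment ran over these 13016 genes, and calls are at an adjusted p under 0.05. The SE was taken as the absolute log2 fold change divided by the root of the F statistic. Log2 CPM used a prior count of 0.5. With 3 libraries a group the smallest exact permutation p is 0.1, and no such test is given. Genes without a symbol or an Ensembl ID stayed in the fit and held 0.306% to 0.339% of a library's counts. Replicates of a group differed beyond sampling noise (chi-square per degree of freedom 2.83 to 12.3).

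The members and all lists were chosen with earlier results of these data known. All members are named. Of each further list, up to 4 called genes by smallest adjusted p are named, or the 2 most abundant where none passed. For Dbp and Nr1d1 the 5 most alike genes are named. Some of the genes listed were not analysed or are not reported here. The steps were tested on simulated data. Alternatives were DESeq2 1.42.0, limma-voom (limma 3.58.1), DESeq2 size factors, upper quartile scaling, no filter beyond 1 count, a mean of at least 5 CPM, the replicate number as a block, and leaving out each library. Leaving out negative control replicate 2 with siRNA_ANK replicate 3, and the 20 most abundant genes from the scaling, are alternatives chosen after seeing the data. Promoter sequences are from RefSeq (GRCr8), matched by symbol or synonym.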

Additional observations from a re-analysis of the deposited data

How the results depend on the processing

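Under the 15 alternatives, 149 of the 150 log2 fold changes of the core clock genes stayed within the replicate spread, the pooled SD within groups. Leaving out a single library can hardly move a group mean by that much, so this count does not show stability. For Per2, -0.50 without siRNA_ANK replicate 3 and -0.19 without siRNA_ANK replicate 2 still counted as within it, against -0.33. The value beyond the spread was that of Clock, -0.56 with negative control replicate 2 and siRNA_ANK replicate 3 both left out. Of the called values, 0 changed sign. Of the 10 members, 8 kept 1 direction throughout; Npas2 and Cry2 did not. Leaving out single libraries gave 3 to 6 core clock genes lower, against 5, and 1 higher each time. It gave 7 to 15 further clock genes higher (7 without negative control replicate 1, 8 without siRNA_ANK replicate 2) and 12 to 14 lower, against 13 and 14. Over all genes it gave 1991 to 2874 higher and 2062 to 2976 lower, against 2594 and 2629. No scaling moved the median of all genes by more than 0.0168 on the log2 scale. With the replicate block, 2579 genes were higher and 2631 lower, and 13 and 14 further clock genes; 7 core clock genes were lower instead of 5, Cry1 and Per2 being added. The replicate numbers are not shown to pair the libraries: deviations of same-numbered libraries correlated at -0.03, 0.06 and 0.04 across genes, and not every library correlated best with its own number. Fewer samples were in the fits without a library; the cause of the other differences was not tested. Genes below the filter, such as Rorb and Hlf, had too few counts for a difference to be detectable. Whether sequencing depth or absence from these cells lay behind the low counts was not tested.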

Other observations

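Glucocorticoids, cAMP and serum are known to reset the clock of cultured cells. Genes that respond to them were listed by role, with earlier results of these data known, so nothing is read from their counts. Of 9 tested CREB and serum response genes, 4 rose and 0 fell (44.4% past the threshold, against 40.1% of all genes tested). The list summed to 110 to 140 CPM in the controls, against 174 to 219 CPM in siRNA_ANK. Egr1, an immediate early transcription factor, rose from 16.2 ± 3.24 to 56.5 ± 14.8 CPM (n = 3, edgeR adjusted p = 0.00140). Fos rose from 2.15 ± 0.873 to 6.14 ± 0.0831 CPM, Fosb from 5.25 ± 0.920 to 11.4 ± 0.915 CPM and the nuclear receptor gene Nr4a1 from 9.47 ± 2.96 to 22.0 ± 0.990 CPM (edgeR adjusted p = 0.000173, 3.98e-05 and 0.000196).

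Of 5 tested glucocorticoid-induced genes, 3 rose and 1 fell (80% past the threshold, against 40.1% of all genes tested). Klf9, a transcription factor, rose from 38.2 ± 2.47 to 50.1 ± 2.12 CPM and Ddit4, an inhibitor of mTOR signalling, from 61.4 ± 5.31 to 81.3 ± 8.62 CPM (edgeR adjusted p = 0.000557 and 0.00139). Fkbp5, a co-chaperone of steroid receptors, fell from 74.0 ± 4.77 to 53.3 ± 8.21 CPM (edgeR adjusted p = 0.00216). Pdk4 was 0.348 ± 0.203 and 1.07 ± 0.411 CPM (edgeR adjusted p = 0.0168); it did not pass when control replicate 1 or 3 (adjusted p = 0.0704 and 0.0764) or siRNA_ANK replicate 3 (adjusted p = 0.0661) was left out. Of 8 cell cycle genes, 12.5% passed the threshold: 0 rose and Cdk1 fell from 15.9 ± 2.29 to 12.0 ± 0.975 CPM (edgeR adjusted p = 0.0147). Cdk1 did not pass when control replicate 2 (adjusted p = 0.0783) or siRNA_ANK replicate 2 (adjusted p = 0.0570) was left out. The part of these genes in the values of the clock genes was not tested.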
